A study of Rattus norvegicus with 32 samples.

Results

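The 34 genes described here are interferon-responsive genes and genes of antigen presentation, taken from a fixed list of symbols, and all 34 were found among the 22587 genes of the rat brain table (Xaf1 under the same letters in capitals). They comprise 6 GTPases (Gbp2, Gbp5, Igtp, Irgm, Mx1, Mx2), 5 transcription regulators (Irf1, Irf7, Irf9, Stat2, Nlrc5), 14 antiviral effectors and members of the Isg15 system, the chemokine Cxcl10, and 8 genes of antigen presentation (B2m, Tap1, Tap2, Tapbp, Psmb8, Psmb9, Psmb10, Cd74). Messenger RNA was sequenced from brainstem and hypothalamus of Wistar Kyoto rats aged 13 weeks. The rats had undergone sham surgery or total bilateral adrenalectomy, which removes the adrenal cortex and medulla and with them the main source of corticosterone and adrenaline. They then breathed filtered air or 0.8 ppm ozone for 4 hours, and tissue was taken straight afterwards. Each of the 8 combinations of tissue, surgery and exposure had 4 libraries. The labels number the libraries but do not tie a number to an animal, so the p-values describe spread among libraries.

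Interferons are secreted cytokines that act through receptors coupled to JAK kinases. Genes that respond to type I interferons often carry interferon-stimulated response elements, and genes that respond to interferon-gamma often carry gamma-activated sites. In the brain, microglia, astrocytes and the endothelium of blood vessels are known to express such target genes at a basal level, and antigen presentation genes of the class I route belong to the same targets.

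Promoter windows of 300 bases (250 before to 50 after the annotated start, RefSeq, build GRCr8) were matched for 29 of the 34 genes. Mx2, Ifit2, Nlrc5, Usp18 and Isg15 had no entry. The core of the interferon-stimulated response element, written GAAANNGAA and searched on both strands, lay in 22 of the 29 windows (75.9%), against 9.71% of all 33469 rat promoter windows of that length. The gamma-activated site, written TTCNNNGAA and the same on both strands, lay in 9 of the 29 (31.0%) against 8.87% of all windows, and 7 windows held both. The windows of the 4 genes whose level changed within a tissue are printed in the direction of transcription, with the matched letters in capitals.
Gbp2: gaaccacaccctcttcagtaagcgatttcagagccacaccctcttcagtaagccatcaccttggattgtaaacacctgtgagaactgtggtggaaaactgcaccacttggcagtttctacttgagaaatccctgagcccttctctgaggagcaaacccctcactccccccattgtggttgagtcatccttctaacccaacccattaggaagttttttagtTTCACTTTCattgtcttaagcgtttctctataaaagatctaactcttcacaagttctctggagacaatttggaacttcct
Gbp5: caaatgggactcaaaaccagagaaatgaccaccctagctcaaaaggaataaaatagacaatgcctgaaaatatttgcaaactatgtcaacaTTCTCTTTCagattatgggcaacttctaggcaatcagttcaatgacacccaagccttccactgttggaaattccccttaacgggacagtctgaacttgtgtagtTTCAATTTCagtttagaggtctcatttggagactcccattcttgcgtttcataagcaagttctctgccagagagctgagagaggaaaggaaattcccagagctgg
Irgm: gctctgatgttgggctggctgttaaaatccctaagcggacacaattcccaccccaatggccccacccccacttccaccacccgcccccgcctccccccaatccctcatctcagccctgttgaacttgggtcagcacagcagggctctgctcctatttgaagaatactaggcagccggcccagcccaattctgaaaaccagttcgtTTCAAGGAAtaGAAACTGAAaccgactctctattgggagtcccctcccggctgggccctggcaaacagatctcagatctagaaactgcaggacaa
Parp14: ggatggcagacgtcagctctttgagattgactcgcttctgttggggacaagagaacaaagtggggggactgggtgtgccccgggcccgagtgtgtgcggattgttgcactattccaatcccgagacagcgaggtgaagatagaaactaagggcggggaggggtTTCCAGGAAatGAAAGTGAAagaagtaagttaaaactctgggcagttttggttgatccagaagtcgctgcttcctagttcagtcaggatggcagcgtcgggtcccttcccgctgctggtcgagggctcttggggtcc
The Gbp2 window is chr2:234005477-234005776 on the plus strand, and its response element core begins at position -30 from the start of the gene. Gbp5 lies on the same chromosome, at chr2:233910749-233911048 on the plus strand, with cores at -159 and -55 and no gamma-activated site. In Irgm (chr10:33742529-33742828, minus strand) a gamma-activated site at -45 stands just before a core at -34. Parp14 (chr11:78407884-78408183, plus strand) has the same arrangement, with the site at -87 and the core at -76, and in neither gene do the matches overlap. A match describes these letters only and was not tested as a site of binding.

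The libraries held 6436458 to 12391173 reads assigned to genes. Markers of the dissected regions matched the tissue labels: 7 brainstem genes summed to 427.9 to 566.3 reads per 1000000 assigned reads (RPM) in brainstem libraries against 4.28 to 18.5 RPM in hypothalamus libraries. Transcripts typical of liver exceeded 2000 RPM in 4 libraries: from hypothalamus, adrenalectomy air 68, sham ozone 18 and sham air 2, and from brainstem, sham ozone 18. Counts were therefore also taken without them. Among the libraries kept, sham brainstem still had 146.1 to 1471 RPM of liver transcripts after air and 35.02 to 120.8 RPM after ozone. Markers of T and NK cells, B cells and neutrophils each summed to 5.6 RPM or less in every library. Genes were tested where their mean normalized count over the fitted libraries reached 10, which left 32 of the 34 genes in each tissue (Xaf1 and Psmb9 fell short in brainstem, Cxcl10 and Psmb9 in hypothalamus) and 31 over both tissues. A gene was called where its limma p, adjusted over all tested genes by the Benjamini-Hochberg method, was under 0.05, and log2 changes were computed on normalized count + 1.

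In the brainstem of sham rats, Gbp2 and Irgm were lower after ozone than after air. Gbp2 encodes a guanylate-binding protein, an interferon-induced GTPase that acts on membranes enclosing intracellular microbes, and Irgm encodes an immunity-related GTPase, a family that acts on such membranes in mice. These were the 2 of 32 tested genes that were called, both lower, where 0.979% of all tested genes were called and 0.396% were called lower. Gbp2 stood at 100.2, 80.2, 70.53 and 109.9 normalized counts in the air libraries and at 26.17, 58.04, 39.45 and 46.04 in the ozone libraries. Every ozone library was below every air library. The mean fell from 90.21 ± 18.03 to 42.43 ± 13.29 (SD, n = 4 each, 353 against 179 reads), a log2 change of -1.10 ± 0.20 (SE) with a limma adjusted p of 0.00961. Fitted on the air and ozone libraries of sham rats alone, the Gbp2 change was no longer called (limma adjusted p = 0.0602). Irgm stood at 143.3, 131.2, 120.3 and 98.45 normalized counts in air and at 65.44, 79.08, 60.27 and 55.48 in ozone, again without overlap. Its log2 change was -0.91 ± 0.17, with the same limma adjusted p of 0.00961. Without the brainstem library rich in liver transcripts, limma still called Gbp2 and Irgm and no other of the 32.

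The other 30 tested genes did not pass in sham brainstem, although 27 of them had negative log2 changes. Over the 32 tested genes the median log2 change was -0.33 and 90.6% were negative. Over all 14408 tested genes the median was -0.003 and 50.7% were negative. The list was chosen with earlier results of these data known, so such comparisons with all genes, here and below, are not independent of them. The 6 GTPases had a median of -0.69 and were all negative. Mx1, a dynamin-like antiviral GTPase, had a log2 change of -0.82 ± 0.29 with a limma adjusted p of 0.335, and Igtp, another immunity-related GTPase, had -0.55 ± 0.21. The 13 antiviral effectors had a median of -0.37. Among them Usp18, the protease that removes Isg15 from its targets, had -0.80 ± 0.24, Rsad2, the radical SAM enzyme viperin, had -0.54 ± 0.16, and Parp14, a mono-ADP-ribosyltransferase, had -0.50 ± 0.13 with a limma adjusted p of 0.107. The 5 transcription regulators had a median of -0.16, from -0.37 for Irf7 to 0.04 for Stat2. The 7 antigen presentation genes had a median of -0.27, from -0.44 for the peptide transporter subunit Tap1 to -0.03 for the proteasome subunit Psmb10. B2m, the light chain of class I molecules, was at 5139 ± 691 normalized counts in air and 4700.0 ± 553.0 in ozone.

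Endothelial markers moved alongside. The 11 endothelial genes found in the table, none of them at 0 in any group, summed to 473.1 to 574.8 RPM in sham brainstem after air and to 379.8 to 462.3 RPM after ozone, and 3 of the 11 (Kdr, Slco1c1, Tie1) were called lower. Microglial markers summed to 248.2 to 273.5 RPM after air and 224.3 to 257.8 RPM after ozone, ranges that overlapped, and none of their 11 tested genes was called. In bulk tissue, fewer cells of a type and less RNA per cell cannot be told apart, and the part of either in the changes of Gbp2 and Irgm was not tested.

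**Figure D1:**
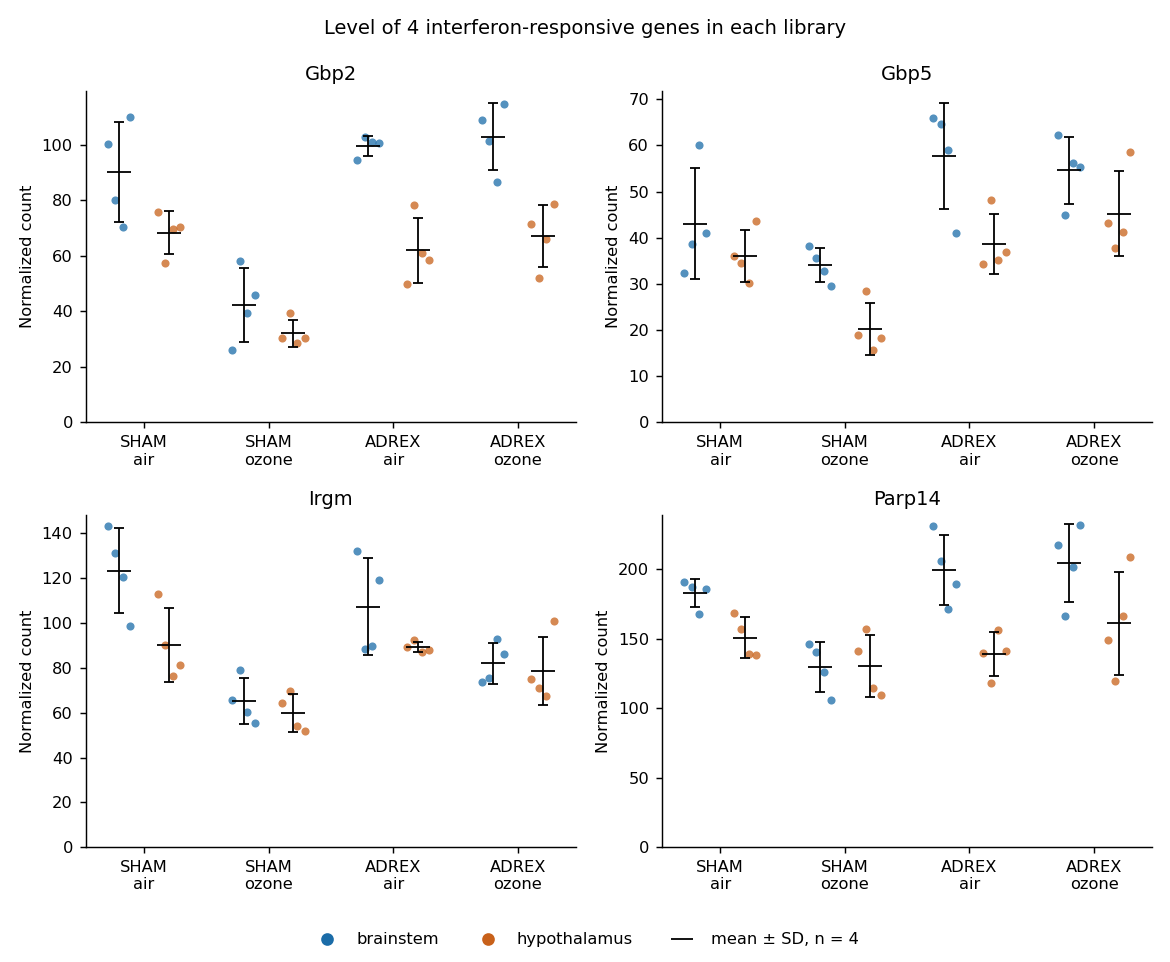
Normalized counts (vertical axes, linear from 0) of Gbp2, Gbp5, Irgm and Parp14 by surgery and exposure (horizontal axes); each point is 1 library, and black bars give the mean ± SD of 4 libraries. The sham ozone libraries of Gbp2 lie between 26.17 and 58.04 in brainstem and between 28.48 and 39.26 in hypothalamus, below every air library of sham rats in the same tissue.

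In the hypothalamus of sham rats, Gbp2 was again lower after ozone, and it was the 1 of 32 tested genes that was called (1.59% of all tested genes were called and 0.642% called lower). It stood at 75.81, 57.5, 69.61 and 70.45 normalized counts after air and at 30.28, 39.26, 28.48 and 30.47 after ozone. The highest ozone library was below the lowest air library. The mean fell from 68.34 ± 7.73 to 32.12 ± 4.84, a log2 change of -1.07 ± 0.17 with a limma adjusted p of 0.00287, and the call held in 26 of 26 alternative fits. Gbp5, a guanylate-binding protein that promotes inflammasome assembly in mice, stood at 36.1, 34.5, 30.1 and 43.7 after air and at 18.92, 28.46, 15.62 and 18.28 after ozone. These values did not overlap, and the log2 change was -0.82 ± 0.21 with a limma adjusted p of 0.0571. Irgm stood at 113.1, 90.08, 76.2 and 81.15 after air and at 64.34, 69.68, 54.21 and 51.8 after ozone, with a log2 change of -0.57 ± 0.15 and a limma adjusted p of 0.0737.

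Gbp5 and Irgm lay close to the threshold in this tissue, and single libraries decided the call. The limma adjusted p of Gbp5 was 0.0170 without sham ozone library 18, 0.0373 without adrenalectomy ozone library 84 and 0.0467 with the liver-rich libraries left out. That of Irgm was 0.0337 without adrenalectomy ozone library 84, and DESeq2 on the recovered reads gave 0.0467. Over the 32 tested genes the median log2 change was -0.21, and 27 were negative. Neither figure is set here against all tested genes, so neither is read as a trait of the list. Mx1 had -0.94 ± 0.27 (limma adjusted p = 0.111), and the immunoproteasome subunit Psmb8 had -0.99 ± 0.35 (limma adjusted p = 0.214), with means of 19.21 ± 2.60 after air and 9.17 ± 1.30 after ozone. Eif2ak2, the double-stranded RNA-activated kinase PKR, had a positive log2 change of 0.33 ± 0.11 that did not pass (limma adjusted p = 0.181).

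Cxcl10, the interferon-induced ligand of Cxcr3, was below the level filter in hypothalamus. Its normalized counts were 8.42, 10.5, 13.2 and 8.03 after air, 41 reads in all, and 1.89, 5.89, 0.919 and 0 after ozone, 9 reads in all. The groups did not overlap. With no filter on low values the log2 change was -2.13 and the limma adjusted p 0.0488. In brainstem the sham groups overlapped, at 7.26 to 15.6 after air and 5.45 to 13.2 after ozone. In adrenalectomized hypothalamus they overlapped too, at 7.61 to 17.6 after air and 3.52 to 9.89 after ozone. The log2 change there, with no filter, was -0.78 ± 0.49. The sham ozone response of Cxcl10 in hypothalamus minus that in brainstem was -1.75 ± 0.59 (limma adjusted p = 0.98). Its interaction with adrenalectomy in hypothalamus was 1.35 ± 0.69 (limma adjusted p = 0.9997), so neither difference of responses passed.

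The endothelial marker sum in sham hypothalamus was 407.0 to 462.0 RPM after air and 298.2 to 339.9 RPM after ozone, with 3 of 11 genes called lower (Emcn, Kdr, Slco1c1). The microglial sum was 246.8 to 268.9 RPM after air and 240.5 to 251.1 RPM after ozone, with none called. The part of either in the Gbp2 change was not tested. The sham ozone response was also compared between tissues in a fit over all 32 libraries. None of 31 tested genes was called by limma (0% of all tested genes were called), by edgeR or by DESeq2. At an unadjusted p under 0.05 limma gave 0, edgeR and DESeq2 each gave 1, and limma with the library number as a block gave 2. The Gbp2 response in hypothalamus minus that in brainstem was 0.03 ± 0.26 on the log2 scale, with a 95% interval from -0.50 to 0.57. Usp18 had the smallest p of the 31, with a difference of 0.69 ± 0.36, followed by Gbp5 at -0.52 and Igtp at 0.51.

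**Figure D2:**
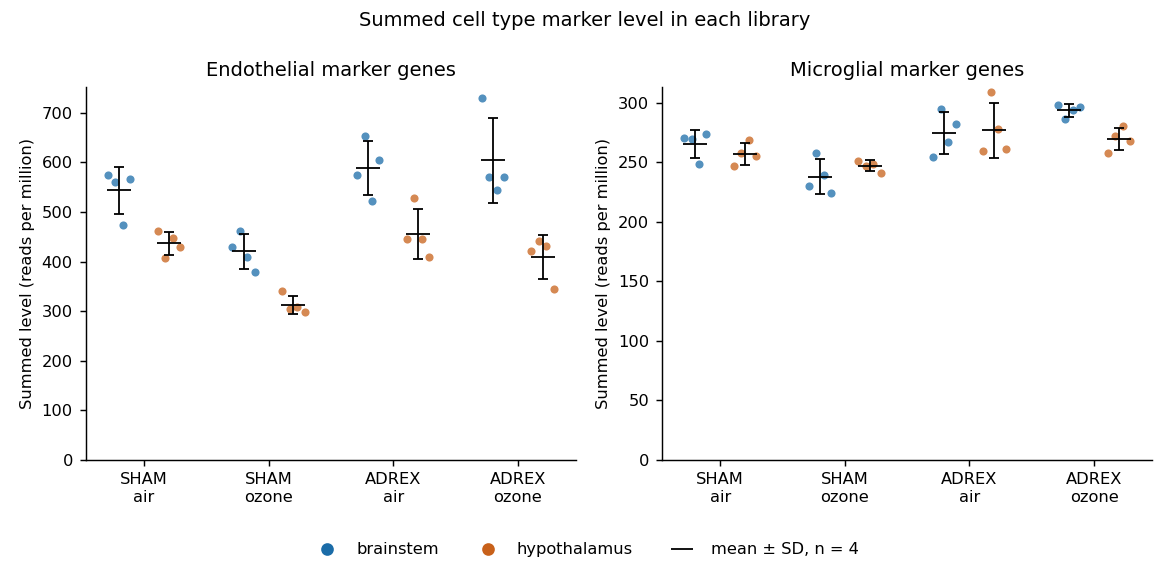
Summed level in RPM (vertical axes, linear from 0) of endothelial and microglial marker genes by surgery and exposure; each point is 1 library, and black bars give the mean ± SD of 4 libraries. Endothelial sums after ozone in sham rats, 379.8 to 462.3 RPM in brainstem and 298.2 to 339.9 RPM in hypothalamus, lie below those of the other groups of the same tissue.

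In adrenalectomized rats no tested gene of the 32 was called for ozone in either tissue. In brainstem limma called 0% of all tested genes, with 3 of the 32 at an unadjusted p under 0.05, and edgeR and DESeq2 called none of the 32. The 3 were Ifi35, an interferon-induced leucine zipper protein, at -0.54 ± 0.25, Tapbp, the peptide-loading protein tapasin, at -0.45 ± 0.19, and Irgm at -0.37 ± 0.17. In hypothalamus limma also called 0% of all tested genes, with 1 of the 32 (Irf9, the DNA-binding subunit of the type I interferon complex, at -0.41 ± 0.16) at an unadjusted p under 0.05 and none called by edgeR or DESeq2. Tapbp at -0.27 and B2m at 0.27 had the next smallest p in that tissue. Gbp2 stood at 94.41, 102.7, 101.1 and 100.6 in brainstem after air and at 109, 101.5, 86.77 and 114.7 after ozone, and the groups overlapped. Its log2 change was 0.04 in brainstem and 0.11 in hypothalamus, where air libraries ranged from 50.05 to 78.24 and ozone libraries from 52.12 to 78.56. The median log2 change over the 32 tested genes was -0.08 in brainstem and -0.05 in hypothalamus, where it ranged from -0.11 to -0.004 with single libraries left out.

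**Figure D3:**
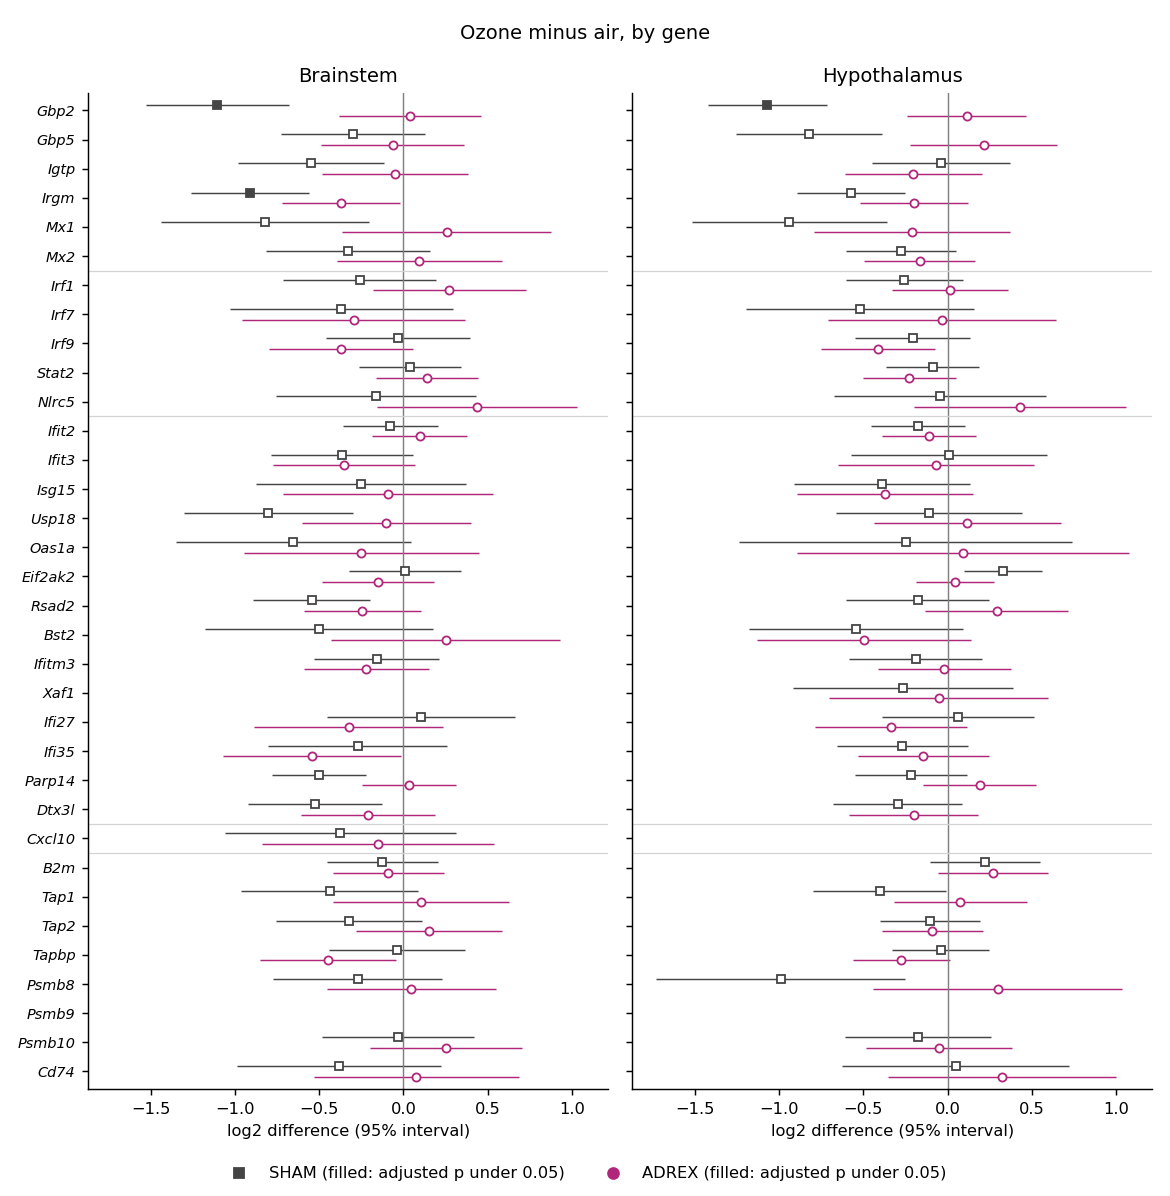
Log2 difference of ozone minus air with its 95% interval (horizontal axes) for each tested gene (vertical axis, grouped by role) in sham rats (squares) and adrenalectomized rats (circles), by tissue; filled symbols have a limma adjusted p under 0.05. Filled symbols are Gbp2 and Irgm in sham brainstem and Gbp2 in sham hypothalamus, and no circle is filled.

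A change passing in sham rats and not in adrenalectomized rats does not show that the 2 responses differ, so the difference of the responses was tested as an interaction. No tested gene was called by limma in brainstem (0.201% of all tested genes were called) or in hypothalamus (0.138%). At an unadjusted p under 0.05 there were 4 of 32 in brainstem and 3 of 32 in hypothalamus. edgeR called none, and DESeq2 called Gbp2 in both tissues. The interaction of Gbp2, its response in adrenalectomized minus that in sham rats, was 1.14 ± 0.28 on the log2 scale in brainstem (limma adjusted p = 0.170, DESeq2 adjusted p = 0.0322) and 1.18 ± 0.24 in hypothalamus (limma adjusted p = 0.0740, DESeq2 adjusted p = 0.0144). In hypothalamus the limma call depended on single libraries: the limma adjusted p was 0.0290 without sham ozone 18, 0.0366 without adrenalectomy air 66 and 0.0378 without adrenalectomy ozone 82. The next smallest p belonged to Parp14 at 0.53 ± 0.19 and Mx1 at 1.08 ± 0.42 in brainstem, and to Gbp5 at 1.04 ± 0.29 and Psmb8 at 1.29 ± 0.49 in hypothalamus. The median interaction over the tested genes was 0.31 in brainstem and 0.15 in hypothalamus. With single libraries left out it ranged from 0.22 to 0.40 in brainstem, and in hypothalamus from 0.07 without sham ozone 20 to 0.25 without sham ozone 18.

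After ozone, adrenalectomized rats had higher levels of Gbp2 in both tissues than sham rats, of Parp14 in brainstem and of Gbp5 in hypothalamus. The sham ozone libraries are the same as those of the ozone comparison in sham rats, so the comparisons are not independent. In brainstem 2 of 32 tested genes were called, both higher, where 2.44% of all tested genes were called and 1.19% were called higher. Gbp2 averaged 103.0 ± 12.1 normalized counts in adrenalectomized rats against 42.43 ± 13.29 in sham rats. The libraries did not overlap, and the log2 difference was 1.31 ± 0.20 (limma adjusted p = 0.00113). Parp14 stood at 217.4, 166.4, 201.6 and 231.6 in adrenalectomized rats and at 146.1, 140.7, 126.0 and 106.2 in sham rats, again without overlap. Its log2 difference was 0.65 ± 0.13 (limma adjusted p = 0.0117). The Parp14 call was lost without sham ozone library 20 (limma adjusted p = 0.0552) and in a fit of the ozone libraries alone (0.0902). Mx1, at 62.23 ± 14.67 against 31.83 ± 12.07, was called by DESeq2 (adjusted p = 0.0308) and not by limma (adjusted p = 0.0970). Irgm, called for ozone in sham brainstem, was not called here, at 81.99 ± 9.12 against 65.07 ± 10.19. Its libraries overlapped, at 73.49 to 92.9 in adrenalectomized against 55.48 to 79.08 in sham rats. In adrenalectomized brainstem after air Irgm averaged 107.3 ± 21.6.

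In hypothalamus 2 of 32 tested genes were called, both higher in adrenalectomized rats after ozone (2.24% of all tested genes were called and 1.04% called higher). Gbp2 averaged 67.08 ± 11.17 against 32.12 ± 4.84, without overlap, a log2 difference of 1.03 ± 0.17 (limma adjusted p = 0.00209). Gbp5 stood at 43.2, 37.74, 41.25 and 58.63 in adrenalectomized rats, all above the 15.62 to 28.46 of sham rats, with a log2 difference of 1.13 ± 0.21 (limma adjusted p = 0.00575). In a fit of the ozone libraries alone the Gbp5 call was lost (limma adjusted p = 0.0625). Irgm, at 78.61 ± 15.14 against 60.01 ± 8.44, overlapped and did not pass (log2 difference 0.38 ± 0.15, limma adjusted p = 0.317). Leaving out the libraries with much liver RNA, limma called the same genes, Gbp2 and Parp14 in brainstem and Gbp2 and Gbp5 in hypothalamus. The median log2 difference over the 32 tested genes was 0.35 in brainstem and 0.27 in hypothalamus, with 26 positive in each, against medians of -0.005 and 0.005 over all tested genes.

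Endothelial markers also differed here. They summed to 544.9 to 730.9 RPM in adrenalectomized against 379.8 to 462.3 RPM in sham brainstem after ozone, and to 344.6 to 441.4 against 298.2 to 339.9 RPM in hypothalamus. In both tissues 6 of 11 were called higher (Cdh5, Egfl7, Kdr, Slco1c1, Tek, Tie1). Microglial markers summed to 286.1 to 297.7 RPM in adrenalectomized against 224.3 to 257.8 RPM in sham brainstem, with 1 of 11 tested genes (Aif1) called higher, and to 257.6 to 280.0 against 240.5 to 251.1 RPM in hypothalamus, with none called. Of 5 perivascular macrophage markers Cd163 was called lower in brainstem, and of 7 astrocyte markers Gfap in brainstem and Aqp4 in hypothalamus were called higher. The perivascular macrophage markers summed to 13.6 to 16.9 RPM in adrenalectomized against 17.4 to 30.4 RPM in sham brainstem. They overlapped in hypothalamus, at 17.91 to 23.62 against 18.52 to 37.65 RPM. At far lower levels, neutrophil markers summed to 1.39 to 3.07 against 0.396 to 1.24 RPM in brainstem, without overlap. In hypothalamus neutrophil markers overlapped, at 0.267 to 2.595 against 0 to 2.031 RPM, and they reached 3.875 RPM in adrenalectomized brainstem after air. T and NK cell markers summed to 0.932 to 1.415 against 0.117 to 0.772 RPM in hypothalamus, without overlap. In brainstem T and NK cell markers overlapped, at 0.517 to 0.959 against 0 to 1.236 RPM. The part of these markers in the higher levels of Gbp2, Gbp5 and Parp14 was not tested.

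After air, no tested gene was called for adrenalectomy in either tissue. In brainstem limma called 0 of 32 (0% of all tested genes), with 1 at an unadjusted p under 0.05, and edgeR and DESeq2 called none. That gene was Gbp5, with a log2 difference of 0.43 ± 0.20, followed by Oas1a, the sensor synthetase of the RNase L pathway, at -0.52 ± 0.33 and Ifit2, an antiviral RNA-binding protein, at 0.17 ± 0.13. In hypothalamus limma called 0 of 32 (0.0138% of all tested genes), with 0 at an unadjusted p under 0.05, and edgeR and DESeq2 called none. Psmb8 had -0.72 ± 0.35, Nlrc5, the transactivator of class I genes, had -0.55 ± 0.30, and Cd74, the invariant chain of class II molecules, had 0.44 ± 0.32. Leaving out single libraries moved Psmb8 between -0.92 (without adrenalectomy air 68) and -0.37 (without adrenalectomy air 65), and Cd74 between 0.16 (without adrenalectomy air 67) and 0.64 (without adrenalectomy air 66). Gbp2 averaged 99.72 ± 3.65 in adrenalectomized brainstem after air and 62.02 ± 11.81 in hypothalamus.

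**Figure D4:**
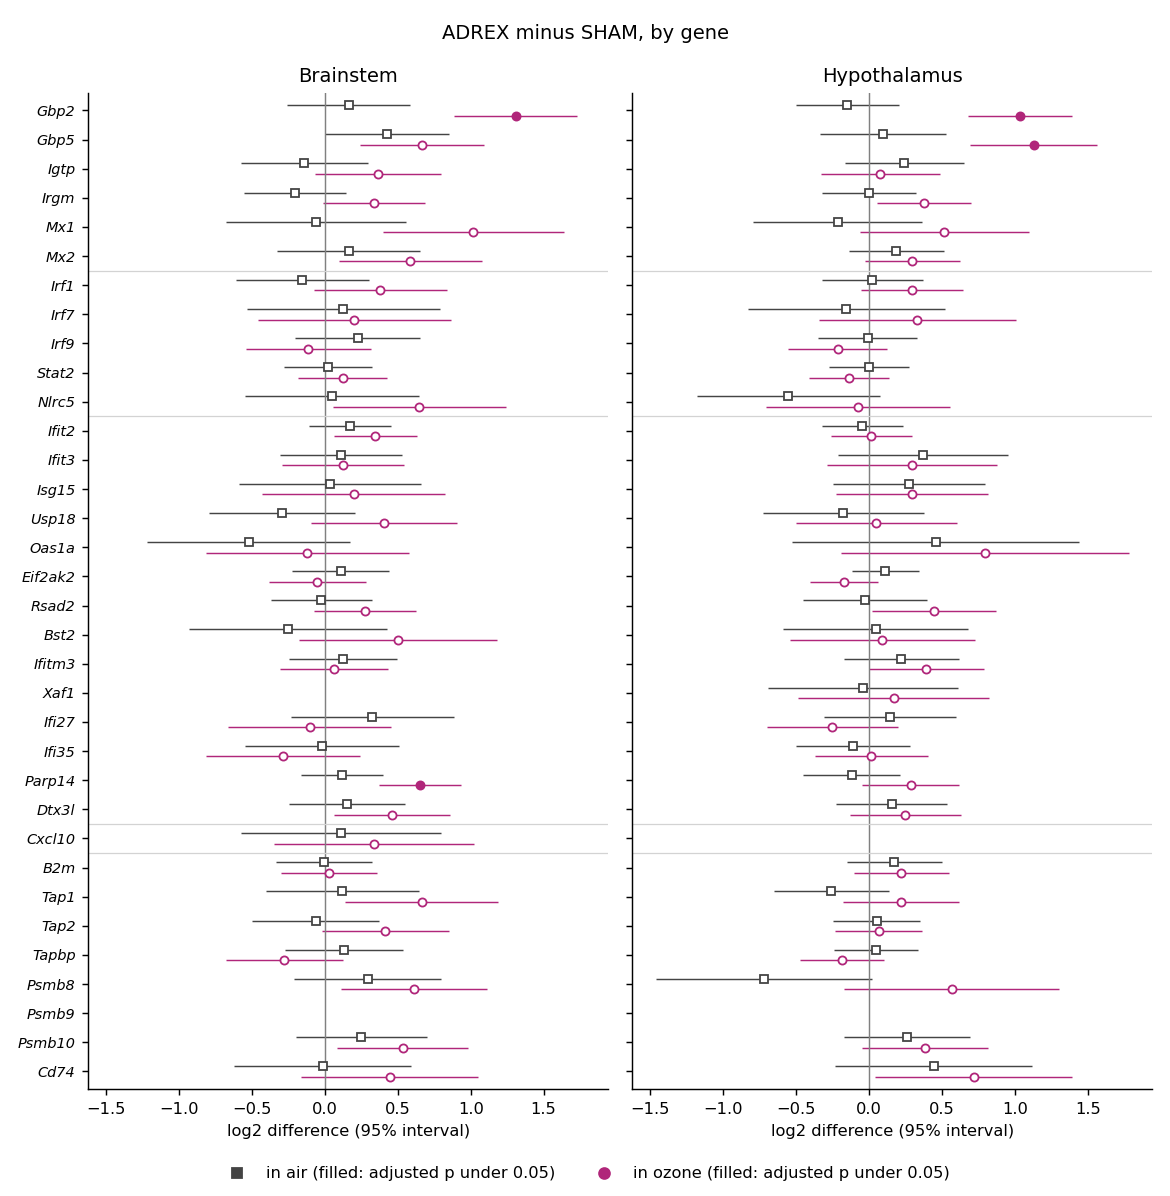
Log2 difference of adrenalectomized minus sham rats with its 95% interval (horizontal axes) for each tested gene (vertical axis, grouped by role) after air (squares) and after ozone (circles), by tissue; filled symbols have a limma adjusted p under 0.05. The filled symbols are all ozone comparisons, Gbp2 and Parp14 in brainstem and Gbp2 and Gbp5 in hypothalamus.

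Of the 31 genes tested over both tissues, 20 were lower in hypothalamus than in brainstem and 1 was higher. The 21 calls compare with a background in which 54% of all tested genes were called and 26.9% were called lower. The median log2 difference was -0.29. Ifi27, an interferon-induced mitochondrial protein, had group means of 272.6 to 349.2 normalized counts in brainstem and 141.7 to 177.5 in hypothalamus, a log2 difference of -0.85 ± 0.13. Cd74 had group means of 154.5 to 204.7 against 84.82 to 144.2, a log2 difference of -0.80 ± 0.16. Mx1 differed by -0.65, Psmb8 and Oas1a by -0.64, Ifitm3, which blocks entry of enveloped viruses, by -0.53, and both Gbp2 and Bst2, the virus-tethering protein tetherin, by -0.51. Adjusted limma p-values of these 8 genes ranged from 1.1e-06 for Ifi27 to 0.0119 for Oas1a. Among the regulators Stat2, a subunit of the type I interferon complex, had a log2 difference of -0.42 ± 0.07.

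Irf1, a transcription factor induced by interferon-gamma, was the gene called higher in hypothalamus, with group means of 56.47 to 68.70 against 44.40 to 58.13 in brainstem and a log2 difference of 0.37 ± 0.10 (limma adjusted p = 0.00161). Tapbp and Tap2 had log2 differences of -0.005 and 0.04 and were not called. Mx2, Tap1 and Usp18 were called with limma-adjusted p-values of 0.0380, 0.0415 and 0.0449, and each lost the call in 17 or 18 of the 41 or 42 alternative fits. Endothelial markers were lower in hypothalamus as well, with 11 of 11 called. Astrocyte marker sums were also lower there, at 3058 to 3512 RPM against 4596 to 5903 RPM in brainstem. Microglial sums overlapped, at 240.5 to 309.1 against 224.3 to 297.7 RPM. Neuronal sums were higher in hypothalamus, at 3601 to 4285 against 3106 to 3550 RPM. The part of any of these markers in the difference between tissues was not tested.

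**Figure D5:**
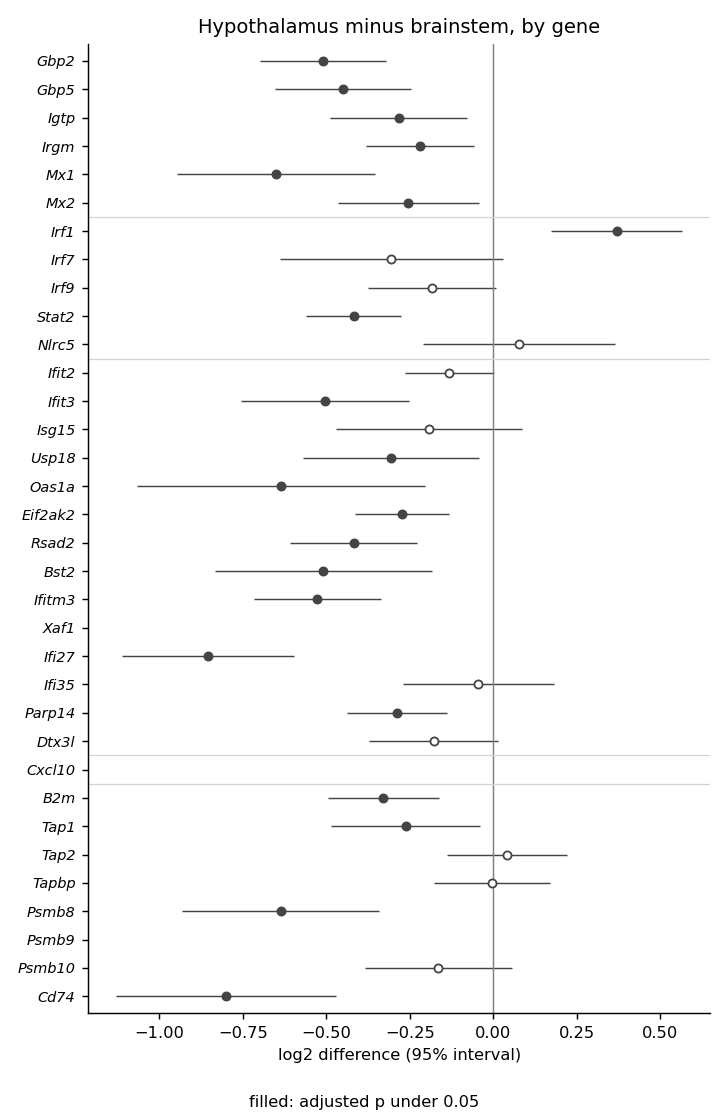
Log2 difference of hypothalamus minus brainstem, mean of 4 groups against mean of 4 groups, with its 95% interval (horizontal axis) for each of 31 tested genes (vertical axis, grouped by role); filled symbols have a limma adjusted p under 0.05. Filled symbols lie to the left of 0 for 20 genes and to the right for Irf1.

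Other genes of the interferon system were taken from wider lists. Of 6 ligand genes in the table none reached the level filter in either tissue. Ifng had 0 reads in 32 libraries, which allows a level of up to 0.0114 RPM over their summed reads, counting error only. Ifnb1 had 1 read, Ifna4 had 4 and Ifnk had 12 in all libraries together. The list also held the interleukin genes Il15, with 228 reads and a read in each of the 32 libraries, and Il27, with 6 reads. Of 15 tested receptor and signalling genes, Ifngr1, the ligand-binding chain of the interferon-gamma receptor, rose after ozone in sham brainstem, from 262.7 ± 23.7 to 379.2 ± 23.5 normalized counts (log2 change 0.53 ± 0.11, limma adjusted p = 0.0293). The call held in 17 of 26 alternative fits, and in the main fit 0.979% of all tested genes were called. Ifngr1 was not called in sham hypothalamus, where values of 181.7 to 244.3 after air and 261.1 to 301.6 after ozone did not overlap. No other receptor or signalling gene was called for ozone or adrenalectomy within a tissue. None of the 10 (brainstem) or 9 (hypothalamus) tested nucleic acid sensors was called in these comparisons, where at most 2.44% of all tested genes were called.

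Among 44 further interferon-stimulated genes, 35 were tested in brainstem and 33 in hypothalamus. After ozone in sham rats 1 was called lower in each tissue. In brainstem it was Gbp4, another guanylate-binding protein, from 20.49 ± 5.14 to 6.77 ± 3.88 (log2 change -1.59 ± 0.35, limma adjusted p = 0.0328). In hypothalamus it was Lgals9, the lectin galectin-9 (log2 change -0.53 ± 0.13, limma adjusted p = 0.0476). Of all tested genes 0.396% and 0.642% were called lower in these comparisons. Gbp4 was low after ozone in sham brainstem, at 2.361 to 11.61 normalized counts per library. Lgals9 was not called in sham brainstem, where values of 92.72 to 128.2 after air and 74.37 to 86.16 after ozone did not overlap. After ozone, adrenalectomized rats had 3 of the further genes higher in each tissue. Of all tested genes 1.19% were called higher in brainstem and 1.04% in hypothalamus. The genes higher in brainstem were Gbp4 (1.69 ± 0.35), Slfn5 (0.71 ± 0.14) and Uba7, the activating enzyme for Isg15 (0.69 ± 0.17). Those higher in hypothalamus were Lgals9 (0.67 ± 0.13), Slfn5 (0.58 ± 0.14) and Parp9, the binding partner of Dtx3l (0.54 ± 0.13). In alternative fits the sham ozone calls held in 15 of 25 for Gbp4 and 6 of 26 for Lgals9. The calls after adrenalectomy held in 24 of 25 for Gbp4, 25 of 26 for Lgals9 and 24 and 18 of 26 for Slfn5 in brainstem and hypothalamus, but in 10 of 26 for Uba7 and 11 of 26 for Parp9. The list medians for ozone in sham rats were -0.35 in brainstem and -0.09 in hypothalamus.

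Of 36 further class I genes, 23 were tested in brainstem and 21 in hypothalamus. RT1-T24-4 fell after ozone in sham brainstem (-0.57 ± 0.12, limma adjusted p = 0.0233), 1 of 23 against 0.396% of all tested genes called lower. In adrenalectomized rats after ozone RT1-T24-4 (0.76 ± 0.12), RT1-CE7 (0.76 ± 0.15) and RT1-T24-3 (1.24 ± 0.30) were higher in brainstem and RT1-CE7 (1.03 ± 0.15) in hypothalamus, 3 of 23 and 1 of 21 against 1.19% and 1.04% of all tested genes called higher. Ctss, the lysosomal protease cathepsin S that trims the invariant chain, was the gene of the class II list that was called. It was lower in both tissues in the same comparison, with log2 differences of -0.52 ± 0.12 and -0.58 ± 0.11. Of all tested genes 2.44% and 2.24% were called there. Ctss was also lower in adrenalectomized rats after air, without being called: 662.3 to 820.4 against 839.2 to 956.1 in brainstem. In hypothalamus it was 533.4 to 717.2 against 815.5 to 969.9. RT1-CE7 in hypothalamus was 147.7 to 226 in adrenalectomized against 122.2 to 126.5 in sham rats after air, also not called. In sham rats after ozone it was 103.8 to 149.5. In alternative fits RT1-CE7 held in 26 of 26 in each tissue, RT1-T24-4 in 26 of 26 (21 of 26 for ozone in sham rats), RT1-T24-3 in 18 of 26, and Ctss in 20 and 26 of 26. None of the 7 constitutive proteasome subunits was called for ozone or adrenalectomy within a tissue, where at most 2.44% of all tested genes were called. RT1 genes, guanylate-binding proteins, immunity-related GTPases and the Mx pair have near-identical copies, among which reads may have been split, so the values of single copies are uncertain.

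Likeness to Gbp2 and Irgm was measured as Pearson's r of log2 deviations from the tissue mean over the 32 libraries, which share the 8 groups, among 13002 genes. Gbp2 was most like Rasgrp3 (r = 0.910), Nkd1 (0.869) and Cobll1 (0.865). Irgm was most like Slco1c1 (r = 0.839), a thyroid hormone transporter that is on the list of endothelial markers, followed by Slc39a10 (0.796) and Mrps6 (0.792). Slco1c1 itself changed by -1.04 ± 0.12 in brainstem and -1.05 ± 0.12 in hypothalamus after ozone in sham rats (limma adjusted p = 0.000105 and 0.000170).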

How the data were processed

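The deposited table holds, per gene and library, a signal that the authors normalized from read counts. The submitters' processing notes name Partek, DESeq2 and the rn6 genome build without versions or roles, while how reads were counted, and whether by strand, was not stated. Divided by each library's smallest step (0.623 to 1.25), 100% of the deposited values were whole within 0.001, so read counts were recovered. limma 3.58.1 (R 4.3.3, mean-dependent prior) was fitted to log2(value + 1) of genes with a mean of 10 or more, on the 16 libraries of a tissue with 4 group means, or on all 32 libraries with 8 group means for contrasts between tissues. P-values were adjusted by Benjamini-Hochberg over all tested genes, with a threshold of 0.05. The script was tested on simulated data. edgeR 4.0.16 and DESeq2 1.42.0 on the recovered reads, other pseudocounts, filters and scalings, and fits without each library were alternatives. All 34 genes may be named. Library values are given for genes called within a tissue, and the 3 genes of smallest p where none was called. Of other pathway genes, up to 4 called genes per list and comparison are named. The members, gene lists and markers were chosen with earlier results of these data known. Values given for Cxcl10, Mx1, Psmb8 and Eif2ak2 were chosen after they were seen. RPM are recovered reads per 1000000. Intervals on reads cover counting error only.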

Additional observations from a re-analysis of the deposited data

How the results depend on the processing

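No called log2 change of the 34 genes changed sign in any alternative fit. The median over the tested genes for ozone after adrenalectomy in brainstem ranged from -0.13 to 0.03 with single libraries left out. The count of called genes for ozone in sham brainstem was 1 with the compared groups alone. For adrenalectomy in ozone in brainstem it was 3 with DESeq2, which added Mx1, 1 with the compared groups alone and 1 to 2 when single libraries were left out. For ozone in sham hypothalamus it was 2 with no filter, 2 with DESeq2, 2 without libraries rich in liver transcripts, and 1 to 3 when single libraries were left out. For adrenalectomy in ozone in hypothalamus it was 1 with a filter at a mean of 50, which removes Gbp5, and 1 with the compared groups alone. The interaction counts were 1 with DESeq2 in each tissue, and 0 to 1 in hypothalamus when single libraries were left out. The cause of these changes was not tested. Between tissues, the replicate block left 21 called genes, losing Tap1 (limma adjusted p = 0.0580) and adding Dtx3l (0.0438), and 0 called genes for the sham ozone response. The labels do not say what a library number marks, and the numbers were not taken to pair the libraries. Of 16 numbers shared by the tissues, 7 had a correlation of deviations over 0.1 and 4 correlated best with their own number (median r 0.031, from -0.531 to 0.612). These correlations cannot decide the matter, because liver RNA also varied by library, for number 68 from 36 RPM in brainstem to 4164 RPM in hypothalamus. Summed red blood cell markers did run together by number: in brainstem and hypothalamus they were 633 and 516 RPM for number 17, 285 and 205 for 66, 20.3 and 13.5 for 68, and 8.27 and 5.61 for 84. They were also 161.7 and 146.5 RPM for 67, 179.3 and 134.1 for 81, and 12.26 and 10.72 for 83. The labels do not settle whether a number marks 1 animal. Counts of called genes in the tissue contrasts are given with and without the block. Values of single genes between tissues come from the fit without the block, apart from Tap1 and Dtx3l above. That fit treats the libraries of the 2 tissues as independent, and a change seen in both tissues may come from the same rats.

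Over all genes, calls for ozone in sham rats numbered 141 in brainstem (237 with DESeq2, 73 to 272 with single libraries left out) and 230 in hypothalamus (412 with DESeq2, 115 to 334). Those for adrenalectomy in ozone numbered 352 in brainstem (148 with the compared groups alone, 197 to 444) and 325 in hypothalamus (161 with the compared groups alone, 591 without libraries rich in liver transcripts, 198 to 584). The interaction had 29 (75 with DESeq2, 18 to 47) and 20 (53 with DESeq2, 15 to 37), and adrenalectomy in air had 0 (16 with DESeq2, 0 to 7) and 2 (15 with DESeq2, 0 to 7). Genes of few reads, such as Cxcl10 and Psmb9, are limited by depth.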

Other observations

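Psmb9, a subunit of the immunoproteasome, was below the level filter in both tissues, with group means of 4.39 to 7.64 normalized counts in brainstem and 4.90 to 6.997 in hypothalamus. Xaf1, a proapoptotic interferon-induced protein, had group means of 6.25 to 10.5 in brainstem and 10.3 to 12.3 in hypothalamus. In a fit with no filter on low values, neither gene was called for ozone or adrenalectomy within a tissue.

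The samples of Gbp2, Gbp5, Irgm and Parp14 were searched for single outlying libraries by Dixon's test in 32 groups of 4. None exceeded the critical value, where chance alone would flag about 1 in 20 groups.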
